A study of Mus musculus with 40 samples.

Results

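The genes described here encode 7 enzymes of heme synthesis: Alas1, Alad, Uros, Urod, Cpox, Ppox and Fech. They were taken as a pathway list and matched by symbol to the gene identifiers of the deposited count tables, and all 7 were found among 55359 identifiers and all 7 passed the filter on low counts. The enzyme that acts between Alad and Uros is not analysed here. The study gavaged male C57BL/6 mice with sesame oil or with TCDD in sesame oil, and TCDD is a dioxin and a strong ligand of AhR, the aryl hydrocarbon receptor, which turns on genes once bound. Liver RNA was sequenced from 40 mice, 5 in each of 8 groups. The control group (vehicle) received sesame oil alone and the others received TCDD, with 0.03 µg/kg the lowest dose, then 0.1, 0.3 and 1 µg/kg, and 3, 10 and 30 µg/kg the highest. All 40 mice shared strain, sex, the oil and a schedule of 7 gavages, each 4 days apart, with tissue collected early in the light phase. The labels give an age of 30 days at the start and 58 days at the end, and the methods of the study give a slightly younger age at the first gavage.

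Heme is made in steps that start in the mitochondrion, run through the cytosol and end in the mitochondrion with the insertion of iron into protoporphyrin. In liver the step catalysed by Alas1 limits the rate of the whole pathway, heme itself is known to repress Alas1, and much of the product goes into cytochrome P450 enzymes. Dioxins are known to cause uroporphyrin to build up in mouse liver through a loss of uroporphyrinogen decarboxylase activity, which RNA levels do not measure.

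The libraries held between 15.5 M and 21.0 M counts in genes, with a median of 17.5 M, where M stands for 1000000 counts. Levels are given as CPM, the counts per M after TMM scaling, a correction for differences in library composition. A gene was called changed when its Benjamini-Hochberg adjusted p in edgeR's quasi-likelihood test was under 0.05 and its fitted change was at least 1.5-fold. The tissue carried the hepatocyte markers named below in every library. Because whole liver was sequenced, fewer cells of a type and less RNA per cell cannot be told apart.

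At 30 µg/kg the gene for the first enzyme rose and most of the genes after it fell. Alas1 was 5.36-fold higher than in vehicle, while Alad, Uros, Cpox and Ppox were between 1.52-fold and 1.90-fold lower. Urod was 1.45-fold lower with an adjusted p under 0.05, short of the fold threshold, and Fech did not pass the test. So 5 of the 7 genes were called, 1 higher and 4 lower, where 42.1% of the 15373 genes tested were called, 23.2% higher and 18.9% lower. On the adjusted p alone, with no fold threshold, 6 of the 7 genes passed against 55.4% of all genes tested. The median log2 fold change was -0.61 over the 7 genes and 0.03 over all genes tested.

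**Figure D1:**
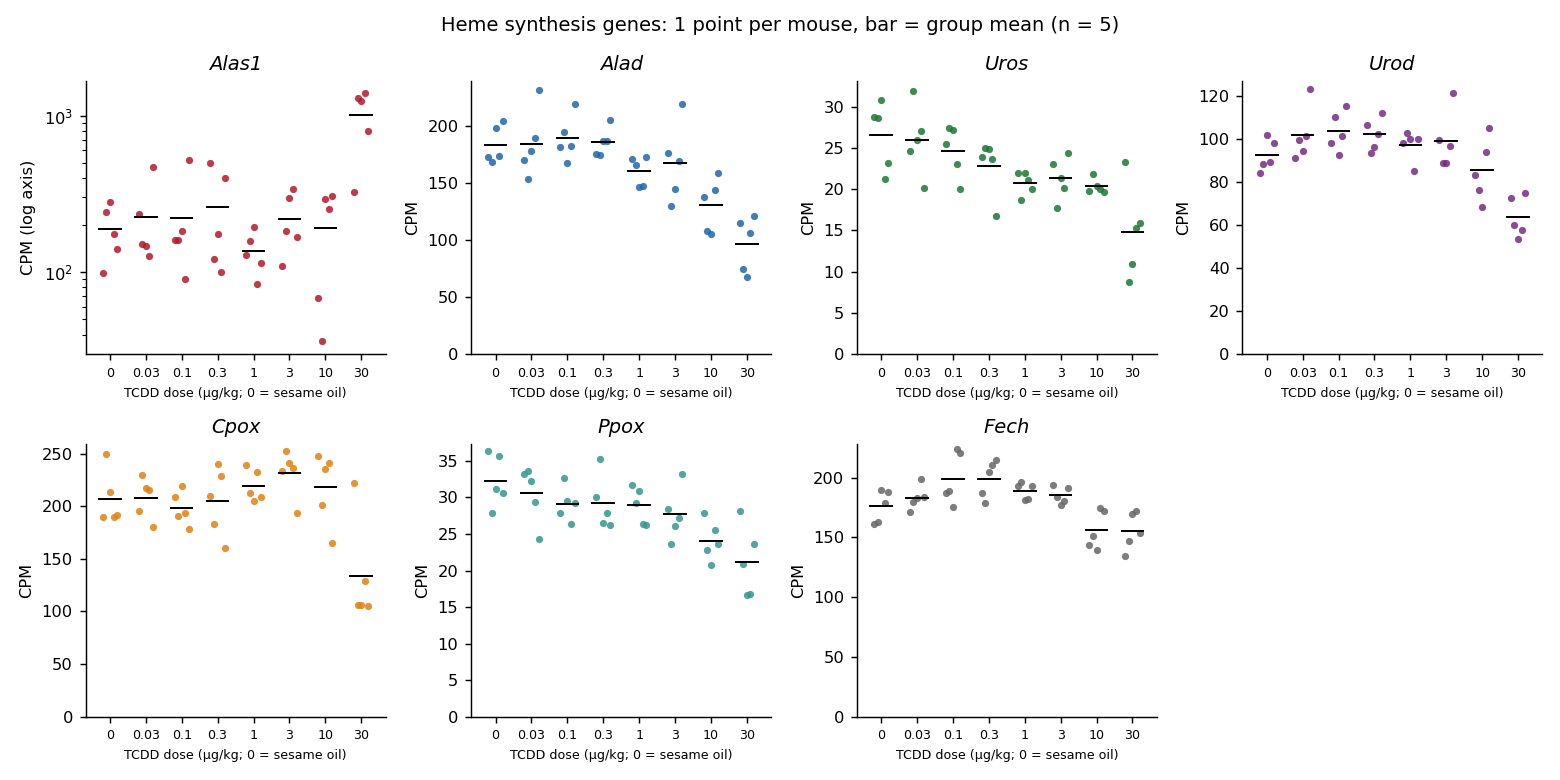
CPM of each heme synthesis gene (y axis, logarithmic for Alas1 and linear from 0 for the others) against TCDD dose (x axis), with 1 point per mouse and a bar at the group mean. Alas1 lay between 327 and 1385 CPM at 30 µg/kg and between 99.4 and 279 CPM in vehicle, and Alad lay between 67.2 and 121 CPM at 30 µg/kg against 169 to 205 CPM in vehicle.

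Alas1 (ENSMUSG00000032786, chr9:106233455-106248654, minus strand, GRCm38) encodes the housekeeping 5-aminolevulinate synthase, which joins glycine to succinyl-CoA. In the 5 vehicle mice its level was 99.4, 244, 279, 176 and 140 CPM. Dosed at 30 µg/kg, the mice had 327, 1287, 1232, 1385 and 800.4 CPM. No mouse at 30 µg/kg overlapped the vehicle mice, although the lowest stood far nearer to them than the other 4 did. Groups did not overlap, with the dosed mice higher, for 19.7% of all genes tested. Its log2 fold change was 2.42 with a standard error (SE) of 0.52, and the Benjamini-Hochberg adjusted p in edgeR's quasi-likelihood test was 0.000154. Without the lowest mouse, replicate 1, the log2 fold change was 2.65.

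The lower doses left Alas1 within a wide spread. From 0.03 to 3 µg/kg single mice ranged from 84.4 to 522 CPM, and each of these groups overlapped vehicle. The 5 mice at 10 µg/kg had 68.4, 36.1, 295, 253 and 307 CPM, which covers values below and above every vehicle mouse. The fitted log2 fold change at 10 µg/kg was 0.03 with an SE of 0.50 (edgeR quasi-likelihood test, adjusted p = 0.972), and it ranged from -0.20 to 0.30 when 1 of the 10 mice was left out. The SE of Alas1 at 30 µg/kg was the largest of the 7 genes, against 0.08 for Fech.

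The Alas1 values were also set against the numbers in the sample titles. For this description the numbers were split into a run up to 27, with 19 libraries, and a run from 28, with 21 libraries. The split was placed where the order of doses starts again from vehicle. It is not a batch named by the labels, and what either run stands for is not stated. The mice at 10 µg/kg with 68.4 and 36.1 CPM belonged to the run up to 27 and those with 295, 253 and 307 CPM to the run from 28. Within the run up to 27 Alas1 had a log2 fold change of -2.002 at 10 µg/kg (adjusted p = 0.0498), on 2 dosed and 3 vehicle mice, and with the run as a covariate over all libraries it was -0.14. At 30 µg/kg its log2 fold change was 1.95 within the run up to 27 and 2.82 within the run from 28, and Alas1 was called in each. In the run from 28, taken in 3s, the libraries in the third place from vehicle to 3 µg/kg had a median of 433 CPM over 4 libraries, against 176 CPM in the first place over 5 libraries and 120.5 CPM in the second over 6. In the run up to 27 the medians over 5 libraries each were 129.6, 160.4 and 193 CPM from the first place to the third, and its highest value, 499 CPM, stood in the first place. The values of the runs did not overlap at 10 µg/kg nor, in the opposite direction, at 1 µg/kg, and they overlapped in the other 6 groups. Each group held only 2 mice of one run and 3 of the other, and so few values can separate by chance. The mean of Alas1 was higher in the run up to 27 in vehicle and at 0.3 and 1 µg/kg and lower at 0.03, 0.1, 3, 10 and 30 µg/kg. The part of run and place in the Alas1 values was not tested beyond these fits.

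Alad (ENSMUSG00000028393, chr4:62509169-62519918, minus strand) encodes aminolevulinate dehydratase, the cytosolic enzyme that joins 5-aminolevulinate molecules into porphobilinogen. Its level was 173, 169, 199, 174 and 205 CPM in vehicle. At 10 µg/kg it was 138, 108, 105, 144 and 159 CPM, and at 30 µg/kg it was 115, 74.9, 67.2, 107 and 121 CPM. The mice at 10 and at 30 µg/kg all lay below the lowest vehicle mouse. Groups did not overlap, with the dosed mice lower, for 10.1% of all genes tested at 10 µg/kg and for 17.9% at 30 µg/kg. It had a log2 fold change of -0.49 (SE 0.14, adjusted p = 0.00644 by edgeR's quasi-likelihood test) at 10 µg/kg, short of the fold threshold. This was -0.92 (SE 0.14, adjusted p = 6.88e-07 by the same test) at 30 µg/kg. Of the 7 genes Alad fell by the most at 30 µg/kg in this fit.

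Uros (ENSMUSG00000030979, chr7:133686243-133710072, minus strand) encodes uroporphyrinogen III synthase, which closes the tetrapyrrole ring. Vehicle mice had 28.8, 28.7, 30.8, 21.3 and 23.2 CPM. Mice at 30 µg/kg had 23.3, 8.69, 10.9, 15.3 and 15.9 CPM. Replicate 1 at 30 µg/kg lay inside the vehicle range and the other 4 lay below it. Uros had a log2 fold change of -0.84 (SE 0.16, adjusted p = 2.56e-05 by edgeR's quasi-likelihood test), and it was -1.07 without replicate 1. The 5 mice at 10 µg/kg lay close together, between 19.7 and 21.9 CPM, with a log2 fold change of -0.38 (adjusted p = 0.0622, the same test).

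Urod (ENSMUSG00000028684, chr4:116989965-116994413, minus strand) encodes uroporphyrinogen decarboxylase, the enzyme whose loss of activity defines the dioxin porphyria. The vehicle values were 84.3, 88.5, 102, 89.1 and 98.1 CPM, and those at 30 µg/kg were 72.7, 59.9, 53.4, 57.5 and 75.1 CPM. All 5 mice at 30 µg/kg lay below all vehicle mice. Urod had a log2 fold change of -0.54 (SE 0.11, adjusted p = 6.95e-05 by edgeR's quasi-likelihood test), short of the fold threshold. It passed that threshold in 5 of the alternative fits, among them the one without replicate 1 at 30 µg/kg, where it was -0.59, and the one without replicate 5 of that group, where it was -0.62. Its values at 10 µg/kg ran from 68.3 to 105 CPM, across the vehicle range, and the log2 fold change was -0.11.

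Cpox (ENSMUSG00000022742, chr16:58670292-58717636, plus strand) encodes coproporphyrinogen oxidase, which works in the mitochondrial intermembrane space. In vehicle it was 189.7, 249.9, 214, 189.9 and 192 CPM. In the mice at 30 µg/kg it was 222, 106, 106, 129 and 105 CPM. Here too replicate 1 stood within the vehicle range and the other 4 mice stood below it. Cpox had a log2 fold change of -0.63 (SE 0.15, adjusted p = 0.000385 by edgeR's quasi-likelihood test) with all mice and -0.89 without replicate 1. It was no longer called without vehicle replicate 2, at -0.56, or without replicate 2, 3 or 5 at 30 µg/kg, where it was -0.58 each time. Its values at 10 µg/kg were 165 to 248 CPM and the log2 fold change was 0.08.

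Ppox (ENSMUSG00000062729, chr1:171275990-171281186, minus strand) encodes protoporphyrinogen oxidase of the inner mitochondrial membrane. It was 36.4, 27.8, 31.1, 35.6 and 30.6 CPM in vehicle and 28.1, 20.9, 16.6, 16.8 and 23.6 CPM at 30 µg/kg. Only replicate 1 at 30 µg/kg reached the lowest vehicle value. The log2 fold change was -0.42 (SE 0.12, adjusted p = 0.00623 by edgeR's quasi-likelihood test) at 10 µg/kg and -0.61 (SE 0.12, adjusted p = 5.06e-05 by the same test) at 30 µg/kg. Ppox shares 791 exon bases, 17.5% of its exon length, with B4galt3 on the other strand, and the libraries kept no strand. Reads on the shared bases are ambiguous and are left out of the unstranded counts used above. The single-strand columns together held 14.3% to 51.2% more Ppox counts per library than the unstranded column. Such counts can include reads of B4galt3. In the counts of the column for a single strand the log2 fold change at 30 µg/kg was -0.40 and Ppox was not called. Nor was it called without vehicle replicate 1 or 4 or without replicate 3 or 4 at 30 µg/kg, with values from -0.57 to -0.55.

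Fech (ENSMUSG00000024588, chr18:64452914-64490251, minus strand) encodes ferrochelatase, which inserts iron in the last step. Vehicle mice had 161.2, 163, 190.0, 179 and 188 CPM, and mice at 30 µg/kg had 135, 147, 169, 172 and 153 CPM. The groups overlapped. Fech had a log2 fold change of -0.18 (SE 0.08, adjusted p = 0.0634 by edgeR's quasi-likelihood test). With scaling to total counts alone, where the median of all genes was 0.52, Fech was at 0.32, in the other direction. Fech was short of the fold threshold there, with an adjusted p of 0.000413 by the same test. Its values at 10 µg/kg were 139.8 to 174 CPM with a log2 fold change of -0.17, and 0.03 with total counts alone.

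At the doses up to 10 µg/kg no heme synthesis gene was called by edgeR. The share of all genes called rose over these doses from 0.0195% at 0.03 µg/kg through 0.0976%, 0.468%, 2.78% and 6.75% to 21.8% at 10 µg/kg. The number of the 7 genes with an unadjusted p under 0.05 was 0 at 0.03 µg/kg, 1 at 0.1, 0.3 and 1 µg/kg, 0 at 3 µg/kg and 4 at 10 µg/kg. The share of all genes at this unadjusted threshold is not given here, so these counts cannot be set against it. On the adjusted p alone 2 genes, Alad and Ppox, passed at 10 µg/kg, both lower, where 31.8% of all genes passed and 14.1% passed lower. DESeq2 also called 0 of the 7 genes at 10 µg/kg. The share of all genes called by DESeq2 is not given here, so its count cannot be set against it. These comparisons share the same vehicle mice and are not independent of one another.

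**Figure D2:**
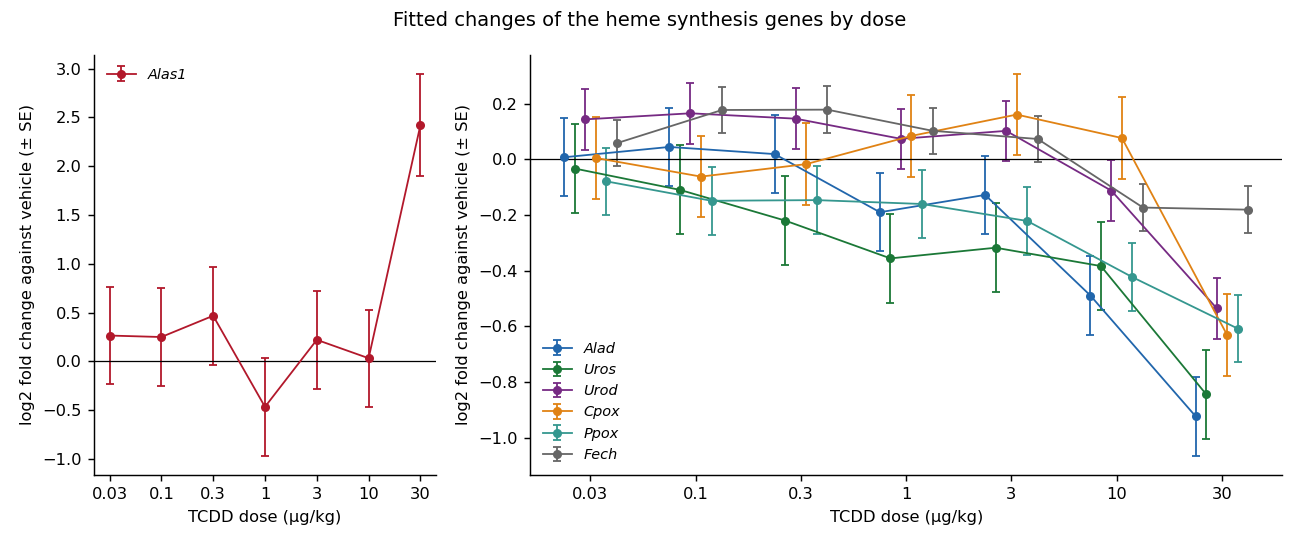
Fitted log2 fold change against vehicle with its standard error (y axis) at each TCDD dose (x axis), for Alas1 on the left and the other 6 genes on the right, on separate scales. Alas1 stood at 0.03 at 10 µg/kg and at 2.42 at 30 µg/kg, while Alad went from -0.49 to -0.92.

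The step from 10 to 30 µg/kg, a comparison without the vehicle mice, moved Alas1 and Cpox most. Alas1 had a log2 fold change of 2.39 (SE 0.52, adjusted p = 0.000476 by edgeR's quasi-likelihood test) and Cpox of -0.71 (SE 0.15, adjusted p = 0.000261 by the same test). These were the 2 of 7 genes called for the step, where 21.1% of all genes were called. Alad, Uros and Urod passed on the adjusted p alone, with log2 fold changes of -0.43, -0.46 and -0.42, which makes 5 of 7 genes against 31.8% of all genes. Ppox at -0.18 and Fech at -0.01 did not pass. Between 3 and 10 µg/kg 0 of 7 genes were called by edgeR, where 6.77% of all genes were. Of the 7, 2 had an unadjusted p under 0.05, again without a share of all genes to set beside it. All 7 had negative log2 fold changes for that step, the lowest being -0.36 for Alad. The median was -0.20 over the 7 genes and 0.01 over all genes tested. A straight line over the dose steps passed the adjusted p for 6 of the 7 genes, Alas1 upward and Alad, Uros, Urod, Ppox and Fech downward, where 57.7% of all genes passed.

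The size of the decreases depended on the scaling of the libraries. With scaling to total counts alone, the median log2 fold change of all genes at 30 µg/kg moved from 0.03 to 0.52. Under that setting 1 of the 7 genes was called, Alas1 at 2.94, and the others were at -0.45 for Alad, -0.38 for Uros, -0.16 for Cpox, -0.13 for Ppox, -0.05 for Urod and 0.32 for Fech. Set against that setting's own median, Alad stood at -0.97, Uros at -0.90, Cpox at -0.68, Ppox at -0.65, Urod at -0.57 and Fech at -0.20. With total counts alone 6402 genes were called higher and 1559 lower at 30 µg/kg, against 3567 and 2909 with TMM scaling.

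Ratios between 2 genes of the same library carry no scaling factor. The counts of Alas1 per count of Alad were 0.573 to 1.45 in vehicle with a median of 1.02. At 30 µg/kg they were 2.85 to 18.3 with a median of 13.0. Alas1 per count of Fech went from 0.616 to 1.498 in vehicle to 2.43 to 8.77 at 30 µg/kg. The vehicle and 30 µg/kg mice did not overlap in either ratio, and they did not overlap in the ratios of Alas1 to Uros, Urod, Cpox and Ppox. Against Fech, Alad had 0.971 to 1.09 counts per count in vehicle and 0.397 to 0.853 at 30 µg/kg, again without overlap. The ratios of Uros, Urod, Cpox and Ppox to Fech overlapped between these groups.

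**Figure D3:**
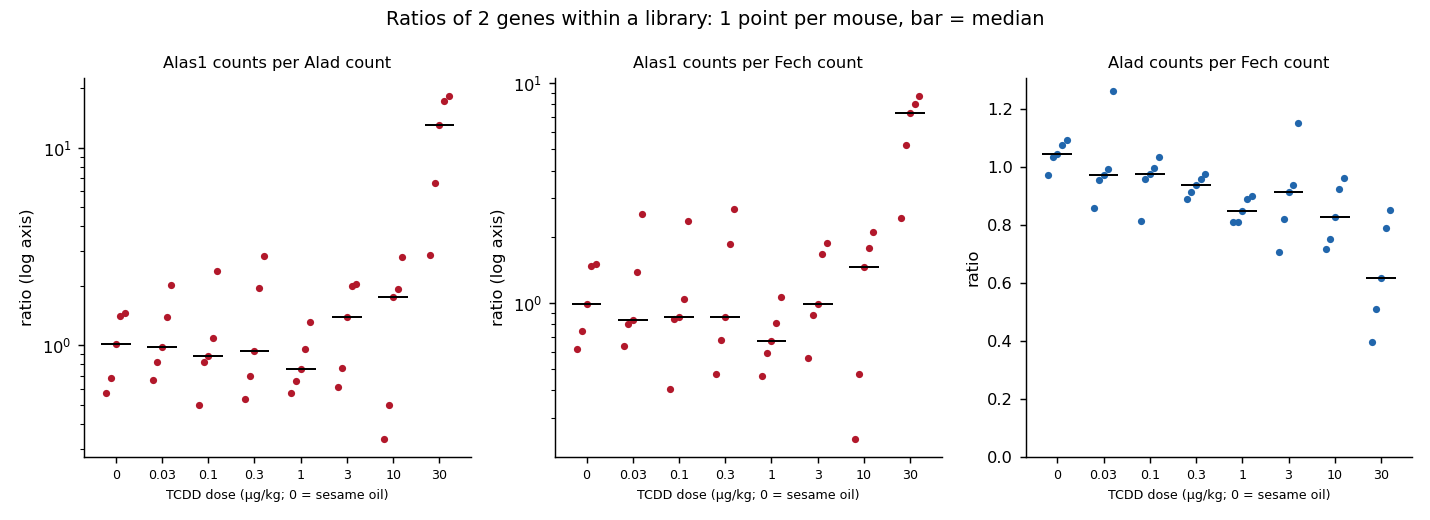
Ratios of the counts of 2 genes in the same library (y axis, logarithmic in the left and middle panels and linear from 0 on the right) against TCDD dose (x axis), with 1 point per mouse and a bar at the median. Alas1 per Alad lay between 0.573 and 1.45 in vehicle and between 2.85 and 18.3 at 30 µg/kg.

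Levels of different genes were compared per kilobase of the principal transcript. In vehicle the order of mean CPM per kilobase was Alad at 147, Cpox at 66.8, Urod at 62.0, Alas1 at 55.2, Fech at 26.8, Ppox at 17.7 and Uros at 15.1. The single-mouse ranges of Cpox, Urod and Alas1 overlapped one another, as did those of Ppox and Uros, while Alad and Fech overlapped none of the others. At 30 µg/kg Alas1 came first at a mean of 296 CPM per kilobase, with single mice between 96.3 and 407, and Alad followed at 77.7, between 53.9 and 97.0, so that the lowest Alas1 mouse fell just within the range of Alad. Cpox at 43.1 overlapped both Alad and Urod at 42.8, and below them came Fech at 23.6, Ppox at 11.6 and Uros at 8.41. Alas1 made up 13.8% ± 4.42 (SD, n = 5) of the summed level per length of the 7 genes in vehicle and 56.2% ± 18.0 (SD, n = 5) at 30 µg/kg. With the length of all annotated exons in place of the principal transcript, Cpox and Urod changed places in vehicle, and so did Ppox and Uros.

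The sequence before the start of each gene was searched for the core of the dioxin response element, the site bound by AhR. The core is GCGTG on either strand, or CACGC when read on the gene's strand. Of the 7 genes, 6 had at least 1 window of 250 bases upstream of a start in RefSeq (GRCm38.p6), 9 windows in all, and the core stood in 4 windows, those of Alas1, Alad, Cpox and Ppox. It stood in 28.2% of all 32851 windows of that length. Cpox and Ppox are printed whole because their windows hold the core and no annotated exon, with the core in capitals and each read 5′ to 3′ on the gene's strand. Cpox is chr16:58669958-58670207 on the plus strand, with 34 bases between the core and the start, and Ppox is chr1:171281187-171281436 on the minus strand, with 9 bases between.
Cpox: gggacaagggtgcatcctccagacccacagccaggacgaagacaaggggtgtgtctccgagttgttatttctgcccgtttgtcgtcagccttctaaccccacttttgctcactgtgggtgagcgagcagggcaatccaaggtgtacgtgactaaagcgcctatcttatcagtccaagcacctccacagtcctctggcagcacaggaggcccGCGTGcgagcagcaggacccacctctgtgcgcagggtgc
Ppox: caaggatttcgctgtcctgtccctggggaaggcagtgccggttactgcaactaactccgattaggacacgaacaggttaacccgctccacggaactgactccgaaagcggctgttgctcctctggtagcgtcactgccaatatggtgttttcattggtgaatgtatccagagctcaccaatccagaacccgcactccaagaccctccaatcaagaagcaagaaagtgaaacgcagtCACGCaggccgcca

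For Alas1 and Alad only 30 bases around each match are given, because their windows cover transcribed sequence of another start. The core at Alas1 lies 217 bases before the start used (chr9:106247936-106247965) and that of Alad 143 bases before it (chr4:62520041-62520070), both on the minus strand. The capitals mark the core.
Alas1 core: ggcttcggcgcgcGCGTGcgcgcggcaggc
Alad core: ccagccccgctcaGCGTGgatctggccgcg

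A matching core was thus present both at Alas1, which rose at 30 µg/kg, and at Alad, Cpox and Ppox, which fell. The windows of Uros and Urod held no match to GCGTG. The letters AGGTCA, bound by nuclear receptors, stood in 0 of the 9 windows and in 14.0% of all windows, and the core TGACTCA of antioxidant response sites in 0 of the 9 and in 4.46% of all windows, on either strand. These are matches of letters in a fixed window and no binding was measured here.

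The 15 genes that carry heme precursors or supply cofactors were called about as often as all genes tested. At 30 µg/kg 5 of them were called lower, 1 was called higher and 9 were not called, where 42.1% of all genes were called, 18.9% lower and 23.2% higher. Abcb10, a mitochondrial inner membrane transporter needed for heme synthesis, had a log2 fold change of -1.66 (SE 0.16, adjusted p = 1.97e-11 by edgeR's quasi-likelihood test). Clpx, the chaperone of a mitochondrial protease that acts on 5-aminolevulinate synthase, had one of -1.62 (SE 0.13, adjusted p = 5.14e-13 by the same test). Also called lower were Tmem14c, a carrier of protoporphyrinogen, at -0.87 and Slc25a38, the mitochondrial glycine carrier, at -0.72. Slc25a28, a mitochondrial iron importer, was called higher at 1.00. The median log2 fold change of the list was -0.10 against 0.03 over all genes. With total counts alone the 5 genes stayed negative, between -1.19 and -0.23, but 5 genes of the list were called higher and 2 lower.

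Of 10 genes of heme breakdown, binding and export, 5 were called higher and 2 lower at 30 µg/kg, where 23.2% of all genes were called higher and 18.9% lower. The median log2 fold change was 0.49 over the list and 0.03 over all genes. Hmox1, the inducible heme oxygenase, was 14.2, 12.8, 16.1, 15.9 and 16.2 CPM in vehicle. At 10 µg/kg it was 40.5, 51.0, 107, 74.7 and 59.5 CPM, and at 30 µg/kg it was 78.3, 190, 269, 173 and 364 CPM. Every mouse at these doses exceeded every vehicle mouse. The log2 fold change of Hmox1 was 2.15 (SE 0.28, adjusted p = 1.45e-07 by edgeR's quasi-likelihood test) at 10 µg/kg and 3.84 (SE 0.30, adjusted p = 1.26e-13 by the same test) at 30 µg/kg. Slc48a1, a heme transporter of lysosomes, was at 2.87, the biliverdin reductases Blvrb and Blvra were at 1.56 and 0.81, and the exporter Flvcr1 was at 1.56. Flvcr2 at -1.76 and Abcg2, which exports porphyrins, at -1.02 were called lower. These called genes kept their sign with total counts alone.

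Among 8 genes listed here as possible regulators of Alas1, 1 was called higher and 1 lower at 30 µg/kg, where 42.1% of all genes were called. More of the 8 passed on the adjusted p alone, with no fold threshold, where 55.4% of all genes passed. Their median log2 fold change was -0.37 against 0.03 over all genes. Nfe2l2, a transcription factor of the oxidative stress response that acts on Hmox1, was at 2.45 (SE 0.20, adjusted p = 5.9e-13 by edgeR's quasi-likelihood test). Nr1d1, a clock repressor of Alas1, was at -1.99 (SE 0.66, adjusted p = 0.0107 by the same test), with vehicle mice from 5.17 to 45.3 CPM and mice at 30 µg/kg from 3.24 to 7.97 CPM. The groups overlapped for Nr1d1, whose exons also overlap Thra on the other strand, and Nr1d1 was at -2.07 at 10 µg/kg. Any part of the listed genes in the Alas1 values was not tested. Without vehicle replicate 5 the count for the list fell to 1, and without replicate 2 at 30 µg/kg it rose to 4. Ppargc1a, a coactivator of Alas1, was at -0.73 (edgeR quasi-likelihood test, adjusted p = 0.0764).

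Of 11 genes for proteins that hold heme or pass electrons to it, 4 were called higher and 4 lower at 30 µg/kg, where 23.2% of all genes were called higher and 18.9% lower. Their median log2 fold change was 0.28 against 0.03 over all genes, and Cyp1a1, Cyp1a2 and Cyp1b1 among them are known AhR targets. Cyp1a1, the standard AhR target, went from 1.66 ± 0.480 CPM (SD, n = 5) in vehicle to 144 ± 53.2 CPM (SD, n = 5) at 0.03 µg/kg and 5767 ± 666 CPM (SD, n = 5) at 30 µg/kg. Cyp1a2, another AhR target, had a log2 fold change of 4.41 at 10 µg/kg and 4.49 at 30 µg/kg, and Cyp1b1 was called higher from only 1 to 11 counts per library in vehicle. Por, the reductase that passes electrons to cytochrome P450 enzymes, was at 2.07. Cyp2e1, at -1.72, Cat, at -0.83, Tdo2, at -0.63, and Cyp3a11, at -0.61, were called lower and kept their sign with total counts alone. Between 10 and 30 µg/kg Cyp1a1 had a log2 fold change of -0.20 (SE 0.17, adjusted p = 0.401 by edgeR's quasi-likelihood test) and Cyp1a2 one of 0.07 (SE 0.13, adjusted p = 0.718 by the same test). Alas1 rose 5.25-fold over that step, and any link between these genes was not tested.

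Alas2, the erythroid counterpart of Alas1, was also read in these livers. It was 61.0, 82.98, 109.6, 105 and 114 CPM in vehicle and 33.9, 1.87, 3.05, 3.65 and 16.1 CPM at 30 µg/kg. Every mouse at 30 µg/kg lay below every vehicle mouse, and replicate 1 was again the nearest. The log2 fold change was -3.02 (SE 0.42, adjusted p = 1.05e-07 by edgeR's quasi-likelihood test). Reads on the exon bases it shares with Apex2 on the other strand are ambiguous and are left out of these counts. Of 12 erythroid markers, 6 passed the filter on low counts and 2, Alas2 and Klf1, were called lower at 30 µg/kg. The 4 hemoglobin genes were not called, with log2 fold changes from -0.05 to 0.09. The summed level of the 12 markers was 238 to 396 CPM in vehicle and 88.7 to 461 CPM at 30 µg/kg, with Epb42 at 0 in every vehicle library.

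**Figure D4:**
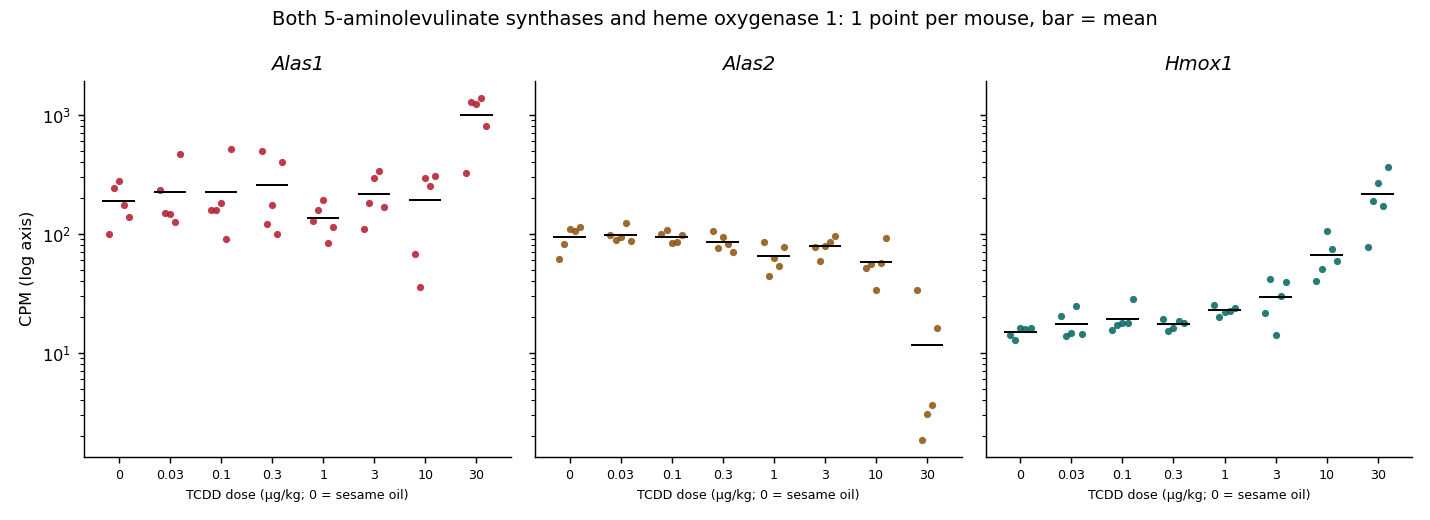
CPM (y axis, logarithmic) of Alas1, Alas2 and Hmox1 against TCDD dose (x axis), with 1 point per mouse and a bar at the group mean. At 30 µg/kg Alas1 lay between 327 and 1385 CPM, Alas2 between 1.87 and 33.9 CPM and Hmox1 between 78.3 and 364 CPM.

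Markers of cell types also changed. Some were called at 1, 3 and 10 µg/kg, where 0 of the 7 heme synthesis genes were called. At these doses 2.78%, 6.75% and 21.8% of all genes tested were called, and Alad and Ppox passed on the adjusted p alone at 10 µg/kg. Which changed first cannot be read from these counts. The hepatocyte markers Alb, Apoa1, Ttr, Cps1, Ass1, Hnf4a, Tat and Serpina1c summed to 102540 to 126548 CPM in vehicle and 30544 to 63084 CPM at 30 µg/kg, and 7 of the 8 were called lower. The 6 macrophage markers summed to 154 to 215 CPM in vehicle and 524 to 1359 CPM at 30 µg/kg, and all 6 were called higher. Of 12 markers of other non-parenchymal cells 10 were called higher and 1 lower, with sums of 128 to 184 CPM in vehicle and 351 to 650 CPM at 30 µg/kg. At 10 µg/kg the hepatocyte sum, 65420 to 106293 CPM, overlapped that in vehicle, and the macrophage sum, 375 to 599 CPM, did not. Most of the hepatocyte sum came from Alb, and 4 of the 8 hepatocyte markers were called lower at that dose. All 6 macrophage markers were called higher there. The part of these cell types in the changes of the heme synthesis genes was not tested.

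The genes with the most similar profiles differed between the 7 genes. Likeness was measured as Pearson's r over the 8 group means of log2 CPM, a description over groups that share their libraries. Alas1 was most like Fbxw5 at 0.984, Abce1 at 0.982 and Smndc1 at 0.980, each with a rise at 30 µg/kg far smaller than its own, between 0.45 and 0.53 on the log2 scale. Alad was most like Pdia5, Gucd1 and BC049987, with r from 0.996 to 0.997. Uros was most like Ttr, Ahsg and Banp, with r from 0.992 to 0.995, and the first of these is among the hepatocyte markers above. Urod was nearest to Zkscan5, Cluh and Cyp7b1, with r from 0.995 to 0.997. Cpox was nearest to Gprc5c, Naprt and Pex16, with r from 0.992 to 0.995, and these 3 genes, like Cpox, were not lower at 10 µg/kg. Ppox was nearest to Gm16332, Gm13613 and Caln1, with r from 0.995 to 0.997, and Fech was like Pmpcb and Zdhhc6, each with an r of 0.975. Between the 7 genes r ran from -0.95 for Alas1 with Cpox to 0.96 for Alad with Urod.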

How the data were processed

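Liver RNA of 40 male mice, 1 library per mouse, was sequenced by the study and the reads were trimmed and aligned by the authors, whose processing notes name Trimmomatic 0.39, STAR 2.7.3a and FastQC 0.11.7. The deposited STAR tables hold read counts per gene, and the unstranded column was used for 55359 gene identifiers, of which 52083 were named. Genome builds GRCm39 and mm10 are listed without a role, so positions are those of the same identifiers in GENCODE vM21 (GRCm38). A second deposited table holds log2 values normalised by the authors, used only for an alternative test with limma.

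Counts of 15373 genes that passed edgeR's filter (minimum count 10, minimum total 15) were fitted over all 8 groups with edgeR 4.0.16 in R 4.3.3, with TMM scaling and a quasi-likelihood test. Genes were called at a Benjamini-Hochberg adjusted p under 0.05 and a fold of 1.5. DESeq2 1.42.0, limma 3.58.1, other scalings and filters, and leaving out each mouse were alternatives, and the code was tested on simulated data. The named genes were the 7 enzymes, every called gene of the lists (transport and cofactor supply, breakdown, regulators of Alas1, heme-using proteins), the cell type markers and the 3 genes most like each enzyme. Some genes that this rule names are not reported here. Hnf4a stood both among the regulators and the hepatocyte markers. Members and lists were chosen with earlier results of these data known. The labels do not say whether mice shared a cage or litter. The p-values of the main fit set a difference between groups against the spread between these mice, estimated over all 8 groups.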

Additional observations from a re-analysis of the deposited data

Results flagged for a closer look

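A gap test (Dixon's, at the 95% level) was applied to each of the 7 genes in each of the 8 groups, 56 groups of 5 mice in all, and 4 had a mouse far from the others. Chance alone marks about 1 in 20 groups. Alas1 was 522 CPM in replicate 5 at 0.1 µg/kg, where the other 4 mice had 90.6 to 183 CPM. Uros was 16.7 CPM in replicate 5 at 0.3 µg/kg, where the others had 23.6 to 25.0 CPM. Urod was 85.1 CPM in replicate 4 at 1 µg/kg, where the others had 98.2 to 103 CPM. Cpox was 222 CPM in replicate 1 at 30 µg/kg, where the others had 105 to 129 CPM.

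The same replicate 1 at 30 µg/kg also had the lowest Alas1 (327 CPM), the highest Uros (23.3 CPM), the highest Ppox (28.1 CPM) and the highest Alas2 (33.9 CPM) of its group. Without it 6 of the 7 genes were called at 30 µg/kg, Urod among them.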

How the results depend on the processing

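Alas1 kept its call at 30 µg/kg under all 23 alternatives, and Alad and Uros under all but total counts alone. Of the 7 genes, 5 were called at 30 µg/kg by edgeR and by DESeq2 and 4 by limma. With total counts alone 1 was called, where 7961 of the 15373 genes tested were, against 6476 in the main fit. The count was 3 with a mean of at least 50 counts, 3 with title numbers up to 27 alone, and 3 to 6 when 1 mouse was left out. Where no share of all genes is given for an alternative, its count cannot be set against one. At 10 µg/kg the count of 0 became 2 with no fold threshold, where 31.8% of all genes passed. It became 1 with title numbers up to 27 alone and 1 with run and order as covariates. For the step from 10 to 30 µg/kg the count of 2 became 5 with no fold threshold, where 31.8% of all genes passed. It became 1 with total counts alone, 1 with title numbers up to 27 alone, and 2 to 3 when 1 mouse was left out. Of the 8 genes listed as possible regulators of Alas1, the 2 called at 30 µg/kg became 5 with no fold threshold, where 55.4% of all genes passed. That count of 2 became 1 with title numbers up to 27 alone, 4 with those from 28 alone, and 1 to 4 when 1 mouse was left out. The log2 fold change of Alas1 at 10 µg/kg, 0.03, turned to -0.14 with the run as a covariate, -2.002 with title numbers up to 27 alone, -0.17 with run and order, and -0.30 with limma on the deposited log2 values. It ranged from -0.20 to 0.30 when 1 mouse was left out. With total counts alone, the log2 fold change of Urod at 10 µg/kg was 0.0862, that of Fech at 10 µg/kg was 0.0344 and that of Fech at 30 µg/kg was 0.32. The cause of these shifts was not tested. The run-and-order fit and the limma fit were chosen after seeing the data. No paired analysis was possible because no replicate number comes from the labels, which leaves nothing that ties a mouse of one group to a mouse of another. Uros and Ppox had the fewest counts, with minima of 209 and 362 in a library.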
